A study of Caenorhabditis elegans with 6 samples.

Results

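The 26S proteasome is the large protease that degrades ubiquitin-tagged proteins, and 32 genes for its subunits were followed in transcriptomes of cultured embryonic cells of the nematode Caenorhabditis elegans. Members were all genes whose first listed name begins with pas-, pbs-, rpt- or rpn- and a digit, 32 of 47063 gene rows. They comprise 7 genes of the alpha ring, 7 of the beta ring, 6 ATPases and 3 other subunits of the regulatory base, and 9 of the regulatory lid. The study compared BAG neurons, which are head sensory neurons for oxygen and carbon dioxide, with other cells and with BAG neurons of a kinase mutant, in 6 libraries. Non-fluorescent (non-BAG) cells and fluorescent BAG cells, 2 libraries each, came from strain FQ424, which is wild type apart from the reporter wzIs113[Pgcy-9::GFP]. The other 2 libraries held fluorescent BAG cells of strain FQ705, which has the same reporter together with the allele wz31 of pmk-3, a gene for a p38 MAP kinase. All groups therefore carried the reporter, a green fluorescent protein under the control of the gcy-9 promoter. Per the labels' protocols, dissociated embryos were kept overnight in culture before sorting, dead cells were excluded with propidium iodide, and the reporter marks BAG cells independently of pmk-3. Most cells of the BAG sorts fluoresced on inspection. Non-BAG cells are a mixture of the remaining cultured cell types.

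As background, the alpha rings form the gate of the proteasome's barrel, and the beta rings inside hold the protease sites. The ATPases of the base unfold substrates and push them through the gate, while the other base subunits bind ubiquitin and shuttle proteins. The lid carries the deubiquitinase that strips ubiquitin before entry. Subunit genes of animals are often raised together when proteasome capacity falls, in worms through the transcription factor SKN-1A, an isoform from the skn-1 gene.

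The libraries held 6181113 to 8596169 reads, of which 10.4% to 15% lay in ribosomal RNA genes. Reads of subunit genes numbered 6434 and 11321 in non-BAG, 11868 and 16965 in wild-type BAG and 6333 and 7512 in mutant BAG libraries. Levels are the normalized read counts deposited by the authors. The targeted gene pmk-3 stood at 404 and 553 in non-BAG, 671 and 585 in wild-type BAG and 259.8 and 284 in mutant BAG libraries, so both mutant libraries lay below all wild-type libraries. All 12 BAG markers rose over non-BAG cells, both in wild-type BAG and in mutant BAG cells. Of all genes tested, 10.2% and 16.2% were called higher in these comparisons. Cells were sorted on the gcy-9 reporter, so a rise of gcy-9 was built into the sort. Testing needed a value of 10 in at least 2 libraries. The genes ets-5, flp-17, tax-2 and glb-5 reached this only through BAG libraries, so their calls support nothing. Markers of dividing cells, 10 genes, summed to 6690 to 10436 in non-BAG, 3289 to 3567 in wild-type BAG and 2659 to 3134 in mutant BAG libraries, and 6 of 10 fell from non-BAG to wild-type BAG cells. Of 10 body wall muscle markers, 9 fell and 1, the myosin gene unc-54, rose in that comparison. Over all genes tested 4.01% were called lower there. The muscle sums were 30526 to 34362, 40156 to 43864 and 48943 to 53317 in the order non-BAG, wild-type BAG and mutant. Most of the BAG sums was unc-54 alone. It stood at 7237 and 6443 in non-BAG, 36220 and 33250 in wild-type BAG and 41710 and 46590 in mutant libraries. Coelomocyte markers fell in 3 of 3 in wild-type BAG over non-BAG. Of 6 hypodermis, 4 intestine, 6 pharynx and 5 germline markers tested 0 passed (unadjusted p under 0.05 for 1, 0, 0 and 0). No marker in the 9 lists was at 0 in all libraries. The part these cell types play in the subunit levels was not tested.

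Wild-type BAG neurons had more of 7 proteasome transcripts than non-BAG cells, with at least 1 from each part of the particle. Of 32 subunits 7 rose, 21.9%, where 10.2% of all 14211 genes tested were called higher, and 0 fell, where 4.01% were called lower. The 7 that rose were pas-5, pbs-6, pbs-7, rpt-6, rpn-2, rpn-7 and rpn-12, by 0.93 to 1.42 on the log2 scale. The summed level of the 32 genes was 6967 and 7018 in non-BAG and 10843 and 12184 in wild-type BAG libraries, 6993 ± 35.9 against 11514 ± 949 (SD, n = 2). As a share of reads outside ribosomal RNA genes, the sums were 0.135% ± 0.0185 against 0.198% ± 0.0309. The libraries of these groups did not overlap in either measure, and these sums were not tested.

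Most other subunits had positive values that did not pass. In 29 of 32 subunits both wild-type BAG libraries lay above both non-BAG libraries, which was so for 28.4% of all genes tested. Both lay below for rpn-3 and rpn-6.2 (25.2% of all genes), and the groups overlapped for pas-6. The median log2 change was 0.93 for the subunits and -0.04 for all genes, and 30 of 32 subunits had a positive value. By role, the medians were 1.04 for the alpha ring, 0.83 for the beta ring, 0.96 for the ATPases, 1.00 for the other base subunits and 0.55 for the lid. Changes are log2(value + 1) differences ± SE, with limma's two-sided Benjamini-Hochberg adjusted p over all genes tested and a threshold of 0.05. In sorted bulk RNA, a larger amount per cell and more cells of a type with high levels cannot be told apart.

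None of the 7 calls held in a fit without the mean-variance trend (0 called) or with only the groups compared (0 called). In these fits 8.44% and 6.60% of all genes tested were called higher. In other fits single libraries decided which calls passed. Without wild-type BAG replicate 2 or without mutant replicate 2, 0 of the 7 passed. Only pbs-6 passed without wild-type BAG replicate 1, and only rpn-2 without mutant replicate 1, while 3 of the 7 passed without non-BAG replicate 1 and 4 without non-BAG replicate 2. Leaving out a mutant library changes only the estimate of the spread in this comparison.

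**Figure D1:**
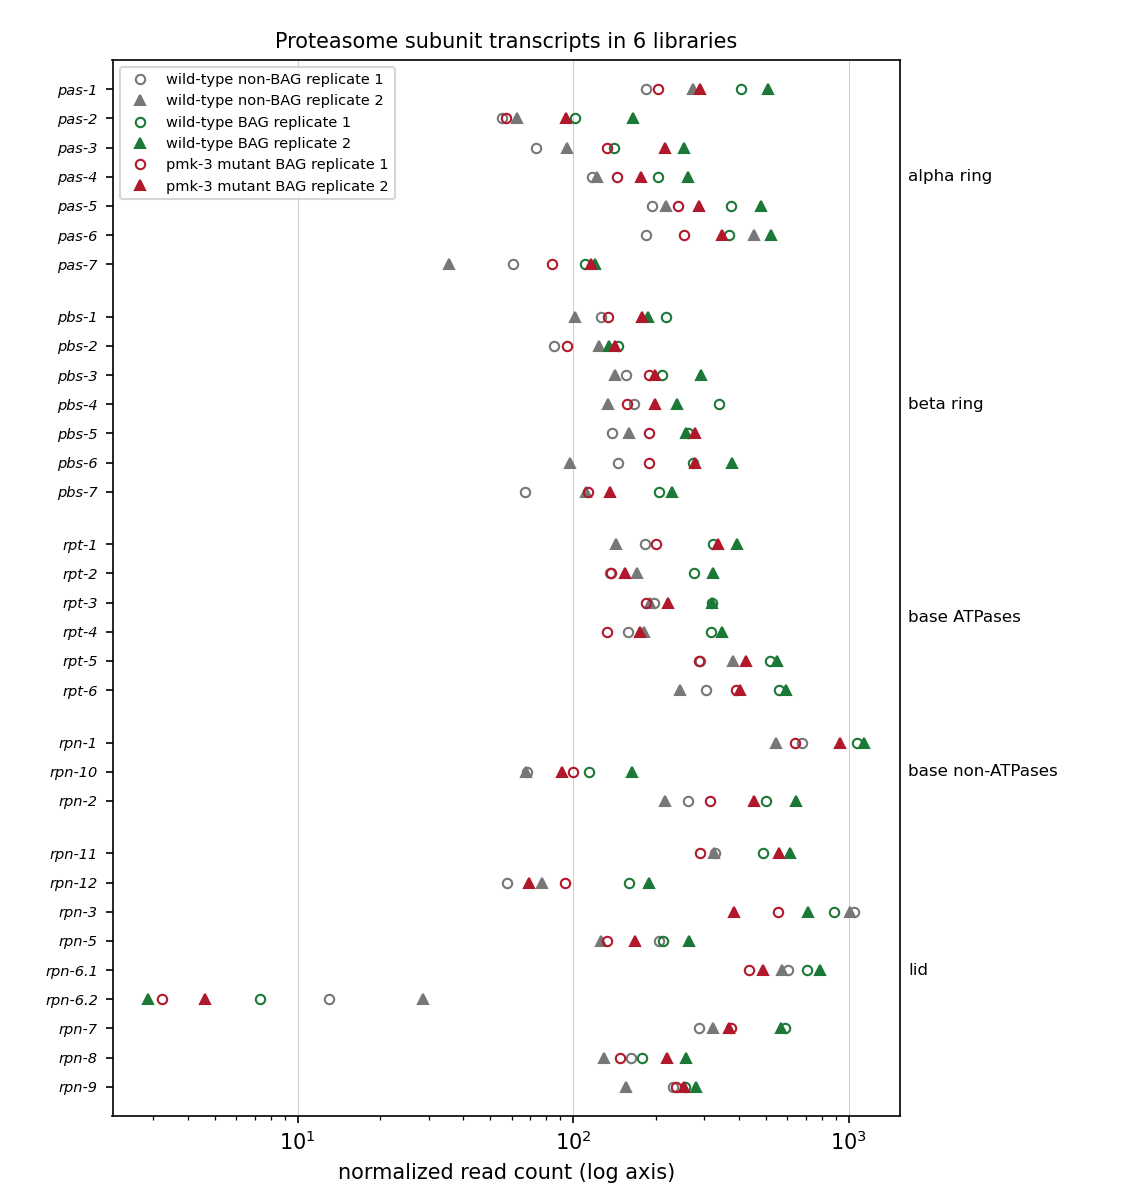
Normalized read count (log axis) of each of the 32 subunit genes in the 6 libraries, 1 row per gene in its part of the proteasome and 1 point per library. The wild-type BAG points lie to the right of both non-BAG points in 29 rows, with rpn-3, rpn-6.2 and pas-6 as the exceptions.

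In the alpha ring, the 7 genes all had positive values against non-BAG cells, and 1 passed (10.2% of all genes tested were called higher). The gene that rose, pas-5, stood at 194 and 218 in non-BAG, 375 and 482 in wild-type BAG and 240.4 and 286 in mutant BAG libraries. Its wild-type BAG libraries were the highest and the mutant libraries lay between the wild-type groups. The change was 1.04 ± 0.28 in wild-type BAG over non-BAG (adjusted p = 0.0381) and -0.70 ± 0.28 in mutant over wild-type BAG (adjusted p = 0.277). The largest value of the ring was that of pas-7, with 60.6 and 35.3 in non-BAG, 111 and 119.9 in wild-type BAG and 84.1 and 116 in mutant libraries. It was 1.29 ± 0.39 (adjusted p = 0.0588) and did not pass, and here the mutant libraries overlapped the wild-type BAG libraries (-0.22). Exons of pas-7 share 4 bases with the similarly abundant lact-2 on the other strand, which leaves its level uncertain.

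The non-BAG libraries of pas-6 stood far apart, at 184 and 456, against 368 and 524 in wild-type BAG and 252 and 348 in mutant libraries. Its wild-type groups overlapped, and its value of 0.60 ± 0.43 (adjusted p = 0.406) was -0.05 without non-BAG replicate 1 and 1.25 without non-BAG replicate 2. For pas-3 the values were 73.6 and 95.5 in non-BAG, 141 and 254 in wild-type BAG and 133 and 216 in mutant libraries. Mutant and wild-type BAG levels of pas-3 overlapped (-0.16 ± 0.40, adjusted p = 0.888), while both lay above non-BAG (1.16 ± 0.40, adjusted p = 0.0877, in wild-type BAG). The other 3 genes, pas-1, pas-2 and pas-4, had values of 1.03, 1.12 and 0.94 in wild-type BAG over non-BAG. Their values in mutant over wild-type BAG were -0.91, -0.81 and -0.53, and none of these passed.

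Among the 7 beta ring genes, 2 rose in wild-type BAG cells, where 10.2% of all genes tested were called higher. The first, pbs-6, stood at 145 and 97.3 in non-BAG, 272 and 377 in wild-type BAG and 189 and 277 in mutant libraries. The mutant libraries overlapped the wild-type BAG libraries and lay above non-BAG. Its change of 1.42 ± 0.35 (adjusted p = 0.024) was the largest of all subunits, and it was -0.48 ± 0.35 in mutant over wild-type BAG (adjusted p = 0.539). The second, pbs-7, stood at 67.1 and 112, 206 and 228 and 113 and 136 in the same order. Both wild-type BAG libraries were the highest, and both mutant libraries lay above both non-BAG libraries. The change of pbs-7 was 1.31 ± 0.35 (adjusted p = 0.0344) in wild-type BAG and -0.80 ± 0.35 (adjusted p = 0.305) between mutant and wild-type BAG.

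The genes of the catalytic subunits, pbs-1, pbs-2 and pbs-5, did not pass, and neither did the structural genes pbs-3 and pbs-4. Levels of pbs-2, the counterpart of the trypsin-like subunit, were 85.6 and 125 in non-BAG, 145 and 135 in wild-type BAG and 94.9 and 143 in mutant libraries. Both wild-type BAG libraries were above non-BAG by little, and mutant overlapped both, with 0.44 ± 0.36 in wild-type BAG over non-BAG (adjusted p = 0.475) and -0.27 ± 0.36 in mutant over wild-type BAG (adjusted p = 0.767). For pbs-5, the counterpart of the chymotrypsin-like subunit, the values were 139 and 159, 261 and 257 and 189 and 276 (0.80 ± 0.31, adjusted p = 0.122, in wild-type BAG). The mutant libraries of pbs-5 lay on either side of the wild-type BAG libraries. The caspase-like counterpart pbs-1 and the structural genes pbs-3 and pbs-4 had values of 0.83, 0.73 and 0.93 in wild-type BAG over non-BAG, and -0.39, -0.35 and -0.69 in mutant over wild-type BAG. Of the 7, pbs-2, pbs-5 and pbs-6 overlapped between mutant and wild-type BAG.

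For each of the 6 ATPases of the base both wild-type BAG libraries lay above both non-BAG libraries (28.4% of all genes tested). For all but rpt-1 both mutant libraries lay below both wild-type BAG libraries (24.3% of all genes tested). In wild-type BAG over non-BAG 1 of the 6 passed, where 10.2% of all genes tested were called higher. The one that passed, rpt-6, stood at 304 and 244 in non-BAG, 557 and 593 in wild-type BAG and 390.2 and 404 in mutant libraries, and the groups did not overlap. It rose by 1.08 ± 0.27 (adjusted p = 0.0247) and was -0.53 ± 0.27 in mutant over wild-type BAG (adjusted p = 0.364). The values of rpt-4 were 158 and 182 in non-BAG, 318 and 346 in wild-type BAG and 133 and 175 in mutant libraries, so mutant and non-BAG overlapped. Its wild-type BAG value was 0.96 ± 0.30 (adjusted p = 0.0607), and its mutant value of -1.12 ± 0.30 (adjusted p = 0.111) was the largest difference of any subunit between the BAG groups. A like pattern was seen for rpt-2, at 136 and 170.5, 275 and 322 and 137 and 154. Its values were 0.96 ± 0.30 (adjusted p = 0.0624) and -1.03 ± 0.30 (adjusted p = 0.137), and neither passed.

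Both rpt-2 and rpt-4 are uncertain, since their exons share bases with genes on the opposite strand and whether the counting used strand is not stated. The partner of rpt-2, fos-1, stood at 556 and 579 in non-BAG, 1199 and 934 in wild-type BAG and 2060.0 and 2202 in mutant libraries over 29 shared bases. The partner of rpt-4, rpoa-49, stood at 363 and 338, 241 and 225, and 169 and 155 over 103 shared bases. Levels of fos-1 were highest, and those of rpoa-49 lowest, in the mutant. The part of these partners in the values was not tested. The remaining ATPases, rpt-1, rpt-3 and rpt-5, had 1.13, 0.72 and 0.69 in wild-type BAG over non-BAG and -0.46, -0.66 and -0.62 in mutant over wild-type BAG. Of these, rpt-1 overlapped between the BAG groups.

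Of the other base subunits, rpn-2, which with rpn-1 forms the scaffold of the base, rose. Its level was 261 and 216 in non-BAG, 502 and 646 in wild-type BAG and 314 and 452 in mutant libraries, with no overlap among the 3 groups. The change was 1.26 ± 0.30 in wild-type BAG over non-BAG (adjusted p = 0.0217) and -0.60 ± 0.30 in mutant over wild-type BAG (adjusted p = 0.374). The other scaffold gene, rpn-1, stood at 680.1 and 547 in non-BAG, 1077 and 1139.8 in wild-type BAG and 638 and 935 in mutant libraries. Wild-type BAG was again highest, but 0.86 ± 0.28 (adjusted p = 0.0755) did not pass. The ubiquitin receptor gene rpn-10 was at 68.2 and 67.6, 114 and 164 and 100.3 and 90.8 in the same order, with no overlap, and its value was 1.00 ± 0.34 (adjusted p = 0.0883).

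The 9 lid genes ranged from -1.84 to 1.37. In wild-type BAG neurons, 2 of the 9 lid genes rose, rpn-7 and rpn-12, where 10.2% of all genes tested were called higher. For rpn-12 the libraries read 57.4 and 76.9 in non-BAG, 159 and 188 in wild-type BAG and 93.8 and 69 in mutant cells. Both wild-type BAG libraries stood above all others, and mutant overlapped non-BAG. The change was 1.37 ± 0.35 (adjusted p = 0.0301) in wild-type BAG, while -1.09 ± 0.35 (adjusted p = 0.177) between mutant and wild-type BAG did not pass. For rpn-7 the libraries read 286 and 322, 587 and 569 and 374 and 367, with no overlap among groups, and the change was 0.93 ± 0.26 (adjusted p = 0.0409) and -0.64 ± 0.26 (adjusted p = 0.266). Exons of rpn-7 share 394 bases with nemt-1, a gene of low level (mean 17.7), and those of pbs-7 share 70 bases with K07A12.5 (mean 12.7), on the same strand. In all, 11 of the 32 subunits share exon bases with another gene, and the partners of pbs-3, pbs-4, rpt-6, rpn-9, rpn-10 and rpn-11 had means of 0 to 24.2.

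A separate pattern was seen for rpn-3, a structural subunit of the lid, which was highest outside BAG neurons. Its level was 1049 and 1009 in non-BAG, 885 and 714 in wild-type BAG and 554 and 385 in mutant libraries, a descending order with no overlap. The difference was -0.37 ± 0.28 in wild-type BAG over non-BAG (adjusted p = 0.436) and -0.78 ± 0.28 in mutant over wild-type BAG (adjusted p = 0.213). Mutant BAG over non-BAG, -1.15 ± 0.28, was the only subunit call in that comparison (adjusted p = 0.0153). It was lost without mutant replicate 2 (-0.89, adjusted p = 0.168) and in a fit without the mean-variance trend. The fit without the trend called rpn-6.2 lower in its place (limma adjusted p = 0.0496). However, rpn-6.2 was tested only through the non-BAG libraries in which it is high, so that call supports nothing.

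A pair of genes encodes the lid subunit RPN-6, at 358 per kb of exon for rpn-6.1 and 13.3 for rpn-6.2 in non-BAG cells. The main gene rpn-6.1, whose raised dose is known to increase proteasome activity in worms, stood at 605 and 573 in non-BAG, 706 and 791 in wild-type BAG and 436 and 488 in mutant libraries. The mutant libraries were the lowest, with -0.70 ± 0.25 against wild-type BAG (adjusted p = 0.218). Its paralog rpn-6.2 was at 13 and 28.5, 7.31 and 2.87 and 3.23 and 4.6, from 3 to 46 reads a library. All 4 BAG libraries were below both non-BAG libraries, and -1.84 ± 0.82 (adjusted p = 0.176) did not pass. This gene reached a value of 10 only in its non-BAG libraries, while the other 31 subunits did so in all 6. The level of rpn-6.2 is uncertain, because no source used here says how reads shared by the pair were counted.

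The deubiquitinase gene rpn-11 stood at 327 and 325 in non-BAG, 488 and 613 in wild-type BAG and 289 and 561 in mutant libraries. Its mutant libraries were further apart than those of the other groups and spanned from below non-BAG into the wild-type BAG range. Its values were 0.74 ± 0.34 (adjusted p = 0.193) and -0.44 ± 0.34 (adjusted p = 0.578). The partner subunit gene rpn-8 and the structural genes rpn-5 and rpn-9 had 0.56, 0.55 and 0.49 in wild-type BAG over non-BAG, and -0.25, -0.66 and -0.13 in mutant over wild-type BAG.

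In pmk-3 mutant BAG neurons, no subunit passed the threshold against wild-type BAG neurons, although every fitted value was negative. By limma 0 of 32 rose and 0 fell, where 0.486% of all genes tested were called higher and 0.352% lower, and edgeR and DESeq2 called 0 as well. The unadjusted p was under 0.05 for 10 subunits. The summed level was 6827 and 8638 in mutant libraries, 7733 ± 1281 (SD, n = 2), against 10843 and 12184 in wild-type BAG libraries, without overlap and without a test. As a share of reads outside ribosomal RNA genes, the mutant sum was 0.125% ± 0.0147. In 23 of 32 subunits both mutant libraries lay below both wild-type BAG libraries, which held for 24.3% of all genes tested. In 0 they lay above (26% of all genes), and 9 overlapped: pas-3, pas-7, pbs-2, pbs-5, pbs-6, rpt-1, rpn-8, rpn-11 and rpn-6.2. The median value was -0.55 for the subunits and 0.02 for all genes tested, with a range of -1.12 to -0.13.

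By role the medians of mutant over wild-type BAG were -0.57 for the alpha ring, -0.39 for the beta ring, -0.64 for the ATPases, -0.52 for the other base subunits and -0.64 for the lid. Mutant replicate 2 stood above mutant replicate 1 in 28 of 32 subunits, with a median log2 difference of 0.40, against 0.014 for all genes. Wild-type BAG replicate 2 stood above replicate 1 in 24 of 32 (0.20, against 0.00069 for all genes), and in non-BAG cells this was so for 15 of 32. Without mutant replicate 1 the median was -0.36, and without mutant replicate 2 it was -0.78. The sign turned for 7 subunits, all among the 9 that overlapped, when 1 library was left out. Leaving out 1 library cannot turn the sign of a subunit whose groups do not overlap, so unchanged signs there show no stability. Scaling changed the median of all genes by 0.11 (TMM), and the subunit median was -0.44 beside 0.13 for all genes under that scaling. All 32 values stayed negative under each of the 3 other scalings. Pan-neuronal markers, 10 genes, summed to 36131 to 37370 in wild-type and 57223 to 68905 in mutant BAG libraries. Of these sums, egl-3 alone held 7889 and 7104 in wild-type and 21800 and 31350 in mutant BAG libraries. Of the 10 genes, 7 had positive and 3 negative values, and 1, egl-21, rose in the mutant. Of 12 BAG markers 2 rose, where 0.486% of all genes tested were called higher. The part of these markers in the subunit values was not tested.

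**Figure D2:**
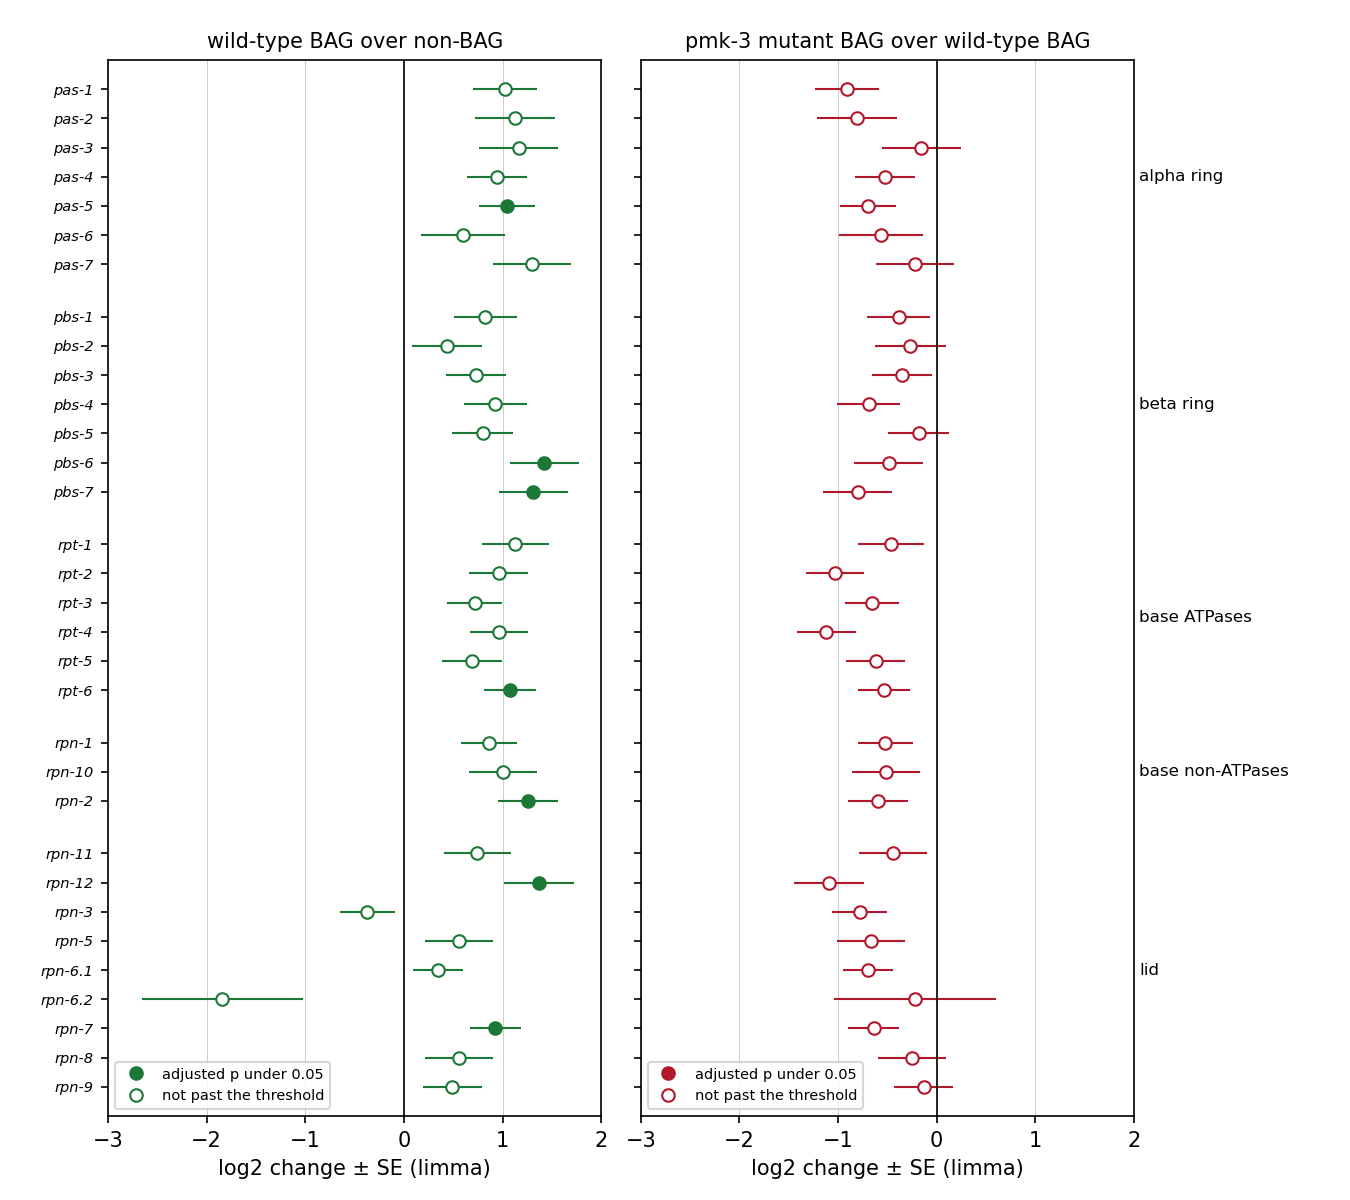
Log2 change ± SE from limma of the 32 subunits in wild-type BAG over non-BAG (left) and in mutant over wild-type BAG (right); filled points passed the adjusted threshold. The 7 filled points are all on the left, 30 values on the left are positive and all 32 on the right are negative; the panels share the wild-type BAG libraries.

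In mutant BAG neurons over non-BAG cells, 1 subunit changed. Of 32 subunits 0 rose and 1, rpn-3, fell, beside 16.2% and 9.34% of all genes tested called higher and lower, and 5 had an unadjusted p under 0.05. The median was 0.31 beside -0.09 for all genes, from -2.06 for rpn-6.2 to 1.08 for pas-7. Both mutant libraries lay above both non-BAG libraries for 15 subunits (32.1% of all genes), below for rpn-3, rpn-6.1 and rpn-6.2 (34% of all genes), and overlapped for 14. The largest positive values were pas-7 at 1.08 ± 0.39 (adjusted p = 0.0733), pas-3 at 1.00 ± 0.40 (adjusted p = 0.0943) and pbs-6 at 0.94 ± 0.35 (adjusted p = 0.0769). The median of the ATPases was 0.07, the lowest of the 5 roles, beside 0.49 for the other base subunits, 0.44 for the beta ring, 0.35 for the alpha ring and 0.27 for the lid. Scaled to reads outside ribosomal RNA genes, an alternative chosen after seeing the data, the median was 0.07 beside -0.33 for all genes, and 20 values in place of 26 were positive. Without mutant replicate 2 the median was 0.15. This comparison shares libraries with both others, so the 3 sets of values are not independent.

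Levels per kb of exon, a rough scale for comparing genes, were unequal for parts of 1 particle. The RNA was amplified, the annotation may differ from the authors', and 11 of the 32 genes share exon bases with another gene. Whether these levels reflect transcript amounts was not tested. Exon lengths came from a current reference annotation, where the 32 genes have 801 to 3171 exonic bases in 2 to 7 blocks and lie on chromosomes I to V (10, 7, 7, 3 and 5 genes). In non-BAG cells the 31 subunits other than rpn-6.2 ran from 49 per kb for pas-7 to 554 for rpn-3, a ratio of 11.3, with a median of 139. In wild-type BAG neurons they ran from 108 for rpn-10 to 501 for pas-5, a ratio of 4.65 and a median of 246. In mutant BAG neurons they ran from 74.1 for rpn-10 to 344 for rpn-11, a ratio of 4.65 and a median of 189.7. The extremes of non-BAG cells, rpn-3 and pas-7, were at 431 and 118 per kb in wild-type BAG neurons. Both were picked as extremes of the non-BAG means, which alone favors values nearer the middle elsewhere, so this shift supports nothing. The beta ring was the narrowest part in non-BAG cells, with a ratio of highest to lowest of 1.84, and had ratios of 2.66 and 2.25 in wild-type and mutant BAG neurons. Per kb rpn-10 was lowest of the base in each group, and rpn-6.2 was at 13.3, 3.27 and 2.52. These are descriptions of group means, with no test.

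**Figure D3:**
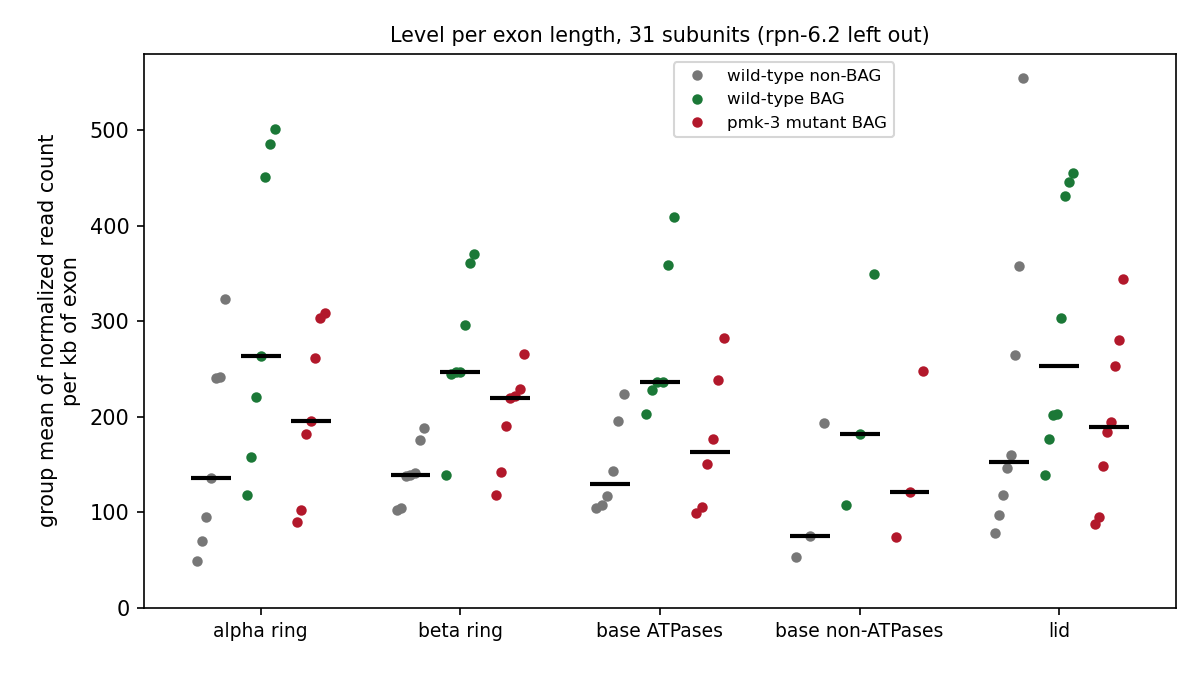
Group mean of normalized read count per kb of exon for 31 subunits (rpn-6.2 left out), by part of the proteasome and group; each point is 1 gene and each bar the median of its part. The highest non-BAG point is rpn-3 in the lid at 554, and the medians of wild-type BAG lie above those of non-BAG in all 5 parts.

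Other genes of the ubiquitin pathway were read in the same fits, by role. None of the proteasome regulators passed in wild-type BAG neurons, where the median of 11 tested was 0.09 and the unadjusted p was under 0.05 for 1. Transcripts of skn-1 stood at 2866 and 3534 in non-BAG, 5159 and 5609 in wild-type BAG and 2247 and 3005 in mutant libraries. Its wild-type BAG libraries were the highest and the values were 0.76 ± 0.27 (adjusted p = 0.103) against non-BAG and -1.05 ± 0.27 (adjusted p = 0.109) for the mutant against wild-type BAG. The counts do not separate isoforms of skn-1. The arsenite-inducible gene aip-1, whose product binds the proteasome, was at 794 and 553, 929 and 997 and 422 and 419.7. Mutant was lowest, at -1.19 ± 0.27 against wild-type BAG (adjusted p = 0.0772). The proteasome-bound deubiquitinase gene ubh-4 fell in mutant BAG over non-BAG by 1.16 ± 0.29 on the log2 scale (adjusted p = 0.0165), from 344 and 454 to 169 and 183. That call was lost without non-BAG replicate 2, mutant replicate 1 or mutant replicate 2. In mutant over wild-type BAG, 10 of 11 regulators had a negative value (median -0.60) and 0 passed, with an unadjusted p under 0.05 for 4.

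Upstream, the ubiquitin-activating enzyme gene uba-1 was the 1 of 10 genes (10%) for ubiquitin, its relatives and E1 enzymes that rose in wild-type BAG cells (1.11 ± 0.26, adjusted p = 0.0209), with a list median of -0.12. Over all genes tested 10.2% were called higher there, the background for the counts in these lists. Of 24 E2 conjugating enzyme genes tested, 4 rose (16.7%): ubc-21 (2.99 ± 0.56), ubc-22 (2.55 ± 0.60), ubc-17 (1.79 ± 0.31) and ubc-8 (1.50 ± 0.38), with a list median of 0.29. Against non-BAG, mutant BAG neurons also had higher ubc-21, ubc-17, ubc-22 and ubc-8 (3.86 ± 0.56, 3.39 ± 0.31, 3.51 ± 0.60 and 2.49 ± 0.38), and 5 E2 genes rose and 2 fell of 24 there, where 16.2% of all genes were called higher and 9.34% lower. Levels of ubc-21 were 2.17 and 3.72 in non-BAG, 29.2 and 30.2 in wild-type BAG and 47.4 and 64.4 in mutant libraries. Those of ubc-22 were 3.25 and 13.02 in non-BAG, 40.2 and 48.8 in wild-type BAG and 80.85 and 93.15 in mutant libraries. Both genes were tested only through the BAG groups in which they are high, and their calls support nothing. In mutant over wild-type BAG, ubc-23 fell from 159.9 and 180.3 to 12.9 and 8.05, with 75.8 and 119.6 in non-BAG. The change was -3.93 ± 0.43 (adjusted p = 0.00932), and it was the only pathway gene called between the BAG groups. It passed without either non-BAG library and did not pass when a library of the BAG groups was left out. In the cullin ligase list (17 genes) 0 passed in wild-type BAG over non-BAG (0 at an unadjusted p under 0.05) and 1, cul-6, fell in mutant BAG over non-BAG (-1.73 ± 0.52).

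Genes that deliver substrates to the proteasome came next. Of 15 genes of CDC-48, the segregase ATPase, and shuttle factors, 2 rose in wild-type BAG cells (13.3%, beside 10.2% of all genes), ubql-1 (1.16 ± 0.25, adjusted p = 0.0129) and cdc-48.1 (1.02 ± 0.27, adjusted p = 0.0339). How reads shared by cdc-48.1 and its close paralog cdc-48.2 were counted is not given, so cdc-48.1 is uncertain. The list median was 0.41 there and -0.58 in mutant over wild-type BAG, where 15 of 15 values were negative and 0 passed (unadjusted p under 0.05 for 5). Of 19 deubiquitinase genes 1 (5.26%) rose, cyld-1 (0.98 ± 0.27, adjusted p = 0.0418), with medians of 0.05 and -0.47. The COP9 signalosome, a complex built like the lid, had 0 of 7 past the threshold in wild-type BAG over non-BAG (0 at an unadjusted p under 0.05), a median of -0.17, and a median of -0.36 in mutant over wild-type BAG. Its gene csn-2 fell in mutant BAG over non-BAG (-0.93 ± 0.29), and its exons share 7 bases with the more abundant ints-1 on the same strand. The chaperonin CCT, a cytosolic folding complex unrelated to proteolysis, had 3 of 8 higher and a median of 0.81 in wild-type BAG over non-BAG, and 8 of 8 negative and a median of -0.62 in mutant over wild-type BAG. Its called genes were cct-1 (1.16 ± 0.25), cct-4 (1.05 ± 0.25) and cct-3 (0.88 ± 0.26), and exons of cct-1 share 117 bases with T05C12.8 on the other strand, so cct-1 is uncertain.

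Most of these pathway calls depended on single libraries. Those of ubc-21 and ubc-22 support nothing in any fit, since both genes were tested only through BAG libraries. In wild-type BAG over non-BAG, 2 of the 11 genes, ubc-17 and ubc-21, passed in all fits with 1 library left out, though ubc-21 entered the test only through the BAG groups, and the other 9 were each lost without wild-type BAG replicate 1 and also without replicate 2. In mutant BAG over non-BAG, 5 of 10 passed in all such fits: ubc-8, ubc-17, ubc-21, ubc-22 and ubc-23. The others, ubh-4, ubc-13, ubc-16, cul-6 and csn-2, were each lost without mutant replicate 1 and also without mutant replicate 2.

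**Figure D4:**
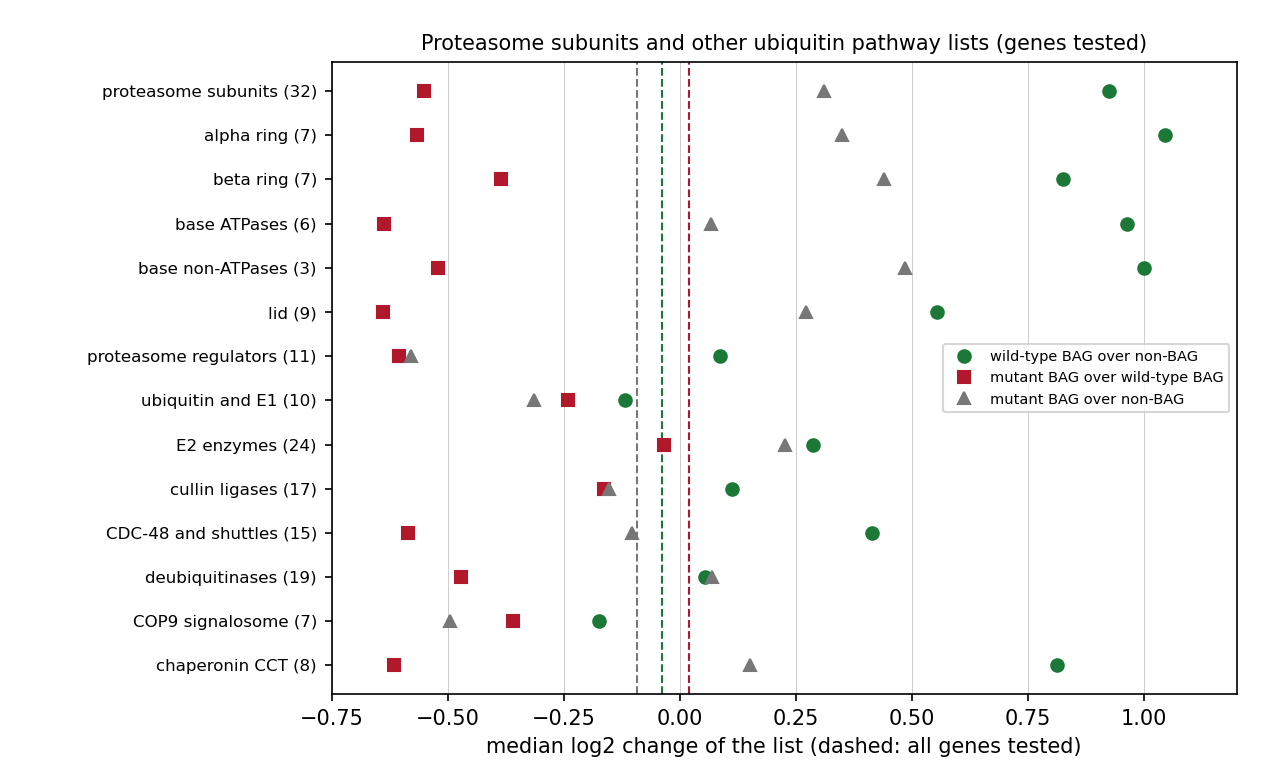
Median log2 change of the proteasome subunits, their 5 parts and 8 other lists (number of genes tested in brackets) in the 3 comparisons; dashed lines mark the median of all genes tested. In the order of the comparisons, the subunit median is 0.93, -0.55 and 0.31, that of the chaperonin CCT 0.81, -0.62 and 0.15, and that of CDC-48 and shuttles 0.41, -0.58 and -0.10.

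A pair of proteasome genes lay outside the naming rule. The ubiquitin receptor gene C56G2.7, now called rpn-13, stood at 240.4 and 188 in non-BAG, 275 and 345 in wild-type BAG and 203 and 214 in mutant libraries. Its wild-type BAG libraries were the highest. The small lid subunit gene dss-1 stood at 56.3 and 73.2, 59.4 and 78.3, and 52.8 and 58.6, and its groups overlapped. The study's design text calls the libraries of a group biological replicates, and the labels do not say that they came from separate cultures, so p-values measure only the spread between these libraries.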

How the data were processed

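RNA was sequenced from 6 libraries of sorted cells. Per the labels' protocols, RNA was amplified with the NuGEN Ovation kit. Per the submitters' processing notes, STAR, HTSeq and DESeq2 were used, without versions or roles. Build, annotation and strand use are not named by any source used here; no coordinates appear. The table deposited by the authors holds normalized counts, a signal per gene. Every value was a whole multiple of 1 read (within 0.01 of a read, 100% of values), which gave the reads and depths. Subunits other than rpn-6.2 had at least 51 to 167 reads a library, a limit on precision from counting alone.

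Of all genes, 14211 reached 10 in at least 2 libraries and were tested with limma 3.58.1 in R 4.3.3 on log2(value + 1), with a mean-variance trend and all 3 groups in 1 fit (3 residual degrees of freedom, no replicate block). The log2 changes understate those of low genes. The members and lists were chosen with earlier results of these data known. Values per library are given for members past the threshold, with extreme levels per kb or large changes, and for the rpn-6 pair. A few more (pbs-5, rpn-11, skn-1, aip-1) were chosen after their values were seen. Replicate numbers were not taken to pair libraries. Correlations of replicate deviations were 0.46 for non-BAG with wild-type BAG, 0.004 for non-BAG with mutant BAG and 0.046 for wild-type with mutant BAG. The count in wild-type BAG over non-BAG, the pair with 0.46, depends on this choice. With a replicate block 16 subunits were called higher there, in place of 7. Alternatives, with edgeR 4.0.16 and DESeq2 1.42.0 on the recovered reads, are given after the report. Exon overlaps came from a reference annotation that may differ from the authors', and sequences were not used here.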

Additional observations from a re-analysis of the deposited data

How the results depend on the processing

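For wild-type BAG over non-BAG, the 7 subunits called higher became 3 with no filter, 12 with a mean of at least 50, 16 with the replicate block, 0 without the trend, 0 with only the 2 groups compared, 3 scaled to reads outside ribosomal RNA genes (chosen after seeing the data) and 0 to 6 with 1 library left out. Fewer calls without the filter go with more genes tested. The cause of the other shifts was not tested. Pseudocounts of 0.5 and 8 gave 7 and 7, TMM 6, quantile scaling 5, edgeR 6 and DESeq2 8, and 0 were lower in any setting. The median of 0.93 was 0.76 scaled to reads outside ribosomal RNA genes (all genes -0.20) and 0.79 to 0.94 with 1 library left out. In mutant over wild-type BAG, the replicate block called 1 lower, rpt-4 (limma adjusted p = 0.0452), where 2.41% of all genes tested were called lower. Exons of rpt-4 share 103 bases with rpoa-49 on the other strand, so rpt-4 is uncertain. All other settings with 2 libraries a group called 0. The median ran from -0.78 to -0.36 with 1 library left out. In mutant BAG over non-BAG, the replicate block called 2 higher, 1 library left out 0 to 2, and the 1 lower call became 0 to 1. With the block, 18.9% of all genes tested were called higher and 14.1% lower in that comparison. The median was 0.0697 scaled to reads outside ribosomal RNA genes and 0.15 to 0.44 with 1 library left out.

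In the first 2 comparisons, members that changed sign did so only when 1 library was left out: pas-6 in wild-type BAG over non-BAG (-0.0523 to 1.25), and in mutant over wild-type BAG pas-3 (-0.58 to 0.27), pas-7 (-0.45 to 0.012), pbs-2 (-0.56 to 0.026), pbs-5 (-0.46 to 0.0902), rpn-8 (-0.53 to 0.028), rpn-11 (-0.92 to 0.038) and rpn-6.2 (-0.77 to 0.33). In mutant BAG over non-BAG 11 of 32 changed sign in some alternative, and the 26 positive values were 27 under TMM, 23 under quantile scaling and 20 scaled to reads outside ribosomal RNA genes. Over 18 alternatives, pbs-6 and rpn-2 passed in 12, rpt-6 in 11, pbs-7 and rpn-12 in 9, pas-5 in 8, rpn-7 in 6, and rpn-3 in mutant BAG over non-BAG in 16 (lost without the trend, where rpn-6.2 passed, and without mutant replicate 2). The call of rpn-6.2 without the trend supports nothing, since rpn-6.2 was tested only through its non-BAG libraries. Where a group kept 1 library, its spread was taken from the other groups. Depth limits rpn-6.2 most, at 3 to 46 reads a library.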
